A study of Mus musculus with 6 samples.

Results

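Scavenger receptors are surface proteins with which macrophages bind and take in modified lipoproteins, microbial surfaces, dying cells, spent plasma proteins and other polyanionic cargo. They are grouped into classes by domain structure rather than by descent, so receptors of different classes can share ligands. In the peritoneal cavity they take part in clearing particles and debris during and after an inflammation. The 9 receptor genes described here were taken by name from a table of 19973 genes: the class A receptors Marco, Msr1 and Colec12, the class B receptor Scarb1, the class E receptor Olr1, the class H receptor Stab1, the haemoglobin receptor Cd163, the mannose receptor Mrc1 and the Fc receptor-like scavenger receptor Fcrls. All 9 were found, 1 row each. They were listed with the difference between old and young libraries already known, so their values in that comparison describe them and are not independent evidence of a difference.

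The libraries came from peritoneal macrophages of male C57BL/6 mice, an inbred strain, aged 18 months (old, 3 libraries) or 2 months (young, 3 libraries). Every mouse, old or young, had been given zymosan A, a yeast cell wall particle, into the peritoneal cavity at 200 µg, and cells were washed out 72 hours later. They were kept overnight in medium with L-cell supernatant, a source of macrophage growth factor, attached cells were retained, and these received phosphate-buffered saline as vehicle for 6 hours. The groups therefore differ by age, all carry the zymosan exposure and the culture, and no unexposed or freshly isolated cells are compared here. The series describes 3 animals for each age and sequencing of every animal's RNA in triplicate, but a library is not tied to an animal or to a run. P-values therefore rest on how far these 6 libraries spread, and that spread may be technical. In such bulk RNA, fewer cells of a type and less RNA per cell cannot be told apart.

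Values are normalized counts, in which the reads of each gene were scaled by the size factor of the library. Implied depth was 8163000 to 13008000 reads in old and 9796000 to 12482000 reads in young libraries. Old replicate 3 and young replicate 3 stood apart from the other libraries of their age, at 37.7 and -25.3 on the second principal component, and 1.34% of the reads of old replicate 3 fell on ribosomal RNA genes, against 0.0177% to 0.154% in the other libraries. Macrophage markers were high in all 6 libraries, with Lyz2 at 296549 to 375055 in old and 238297 to 306878 in young libraries and Csf1r at 19134 to 20131 and 15854 to 17445. Of the listed resident macrophage genes, Gata6 (9.56 to 10.3 in old, 12.1 to 16.7 in young) and Timd4 (6.84 to 16.7 in old, 6.14 to 14.4 in young) were low at both ages. Selp and Garnl3 were low too, at 5.03 to 29.2 over all libraries. The others were not: Alox15, Icam2 and Prg4 lay at 72.4 to 144.8, and Serpinb2 at 1817 to 2256 in old and 743 to 1066 in young libraries. Summed B cell markers were 1107.5 to 2345.5 in old and 47.3 to 56.3 in young libraries, and summed mast cell markers were 535 to 607 in old and 38.2 to 63.4 in young libraries. The part of these cells in the receptor values was not tested.

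In old libraries 6 of the 9 receptors were lower, namely Fcrls, Olr1, Marco, Cd163, Stab1 and Mrc1, 2 were higher, namely Colec12 and Scarb1, and Msr1 did not pass. The fit covered 11795 genes with a mean of at least 10 normalized counts (limma on log2(normalized count + 1), Benjamini-Hochberg adjusted p under 0.05 over all of them). Of all genes tested 35.5% passed, 17.6% lower and 17.9% higher in old, so passing was common in this comparison. That split depended on scaling. With libraries centred on the mean of 9 macrophage identity markers, a scaling added after seeing the data, 567 genes passed as higher and 7690 as lower. The markers were Cd14, Csf1r, Lyz2, Itgam, Mertk, Tyrobp, Adgre1, Lamp2 and Cd74. All of them had log2 fold changes above 0, from 0.26 in Csf1r to 0.89 in Cd14 and 1.33 in Cd74. The part of other cells in these marker values was not tested. The median log2 fold change of the 9 receptors, old minus young, was -1.35, beside 0.00 for all genes tested. In 8 of the 9 receptors the old and young libraries did not overlap, as in 47.5% of all genes tested. All 9 receptors met the minimum mean, but Fcrls did so through the young libraries alone. The plot of the receptors by library shows each value.

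**Figure D1:**
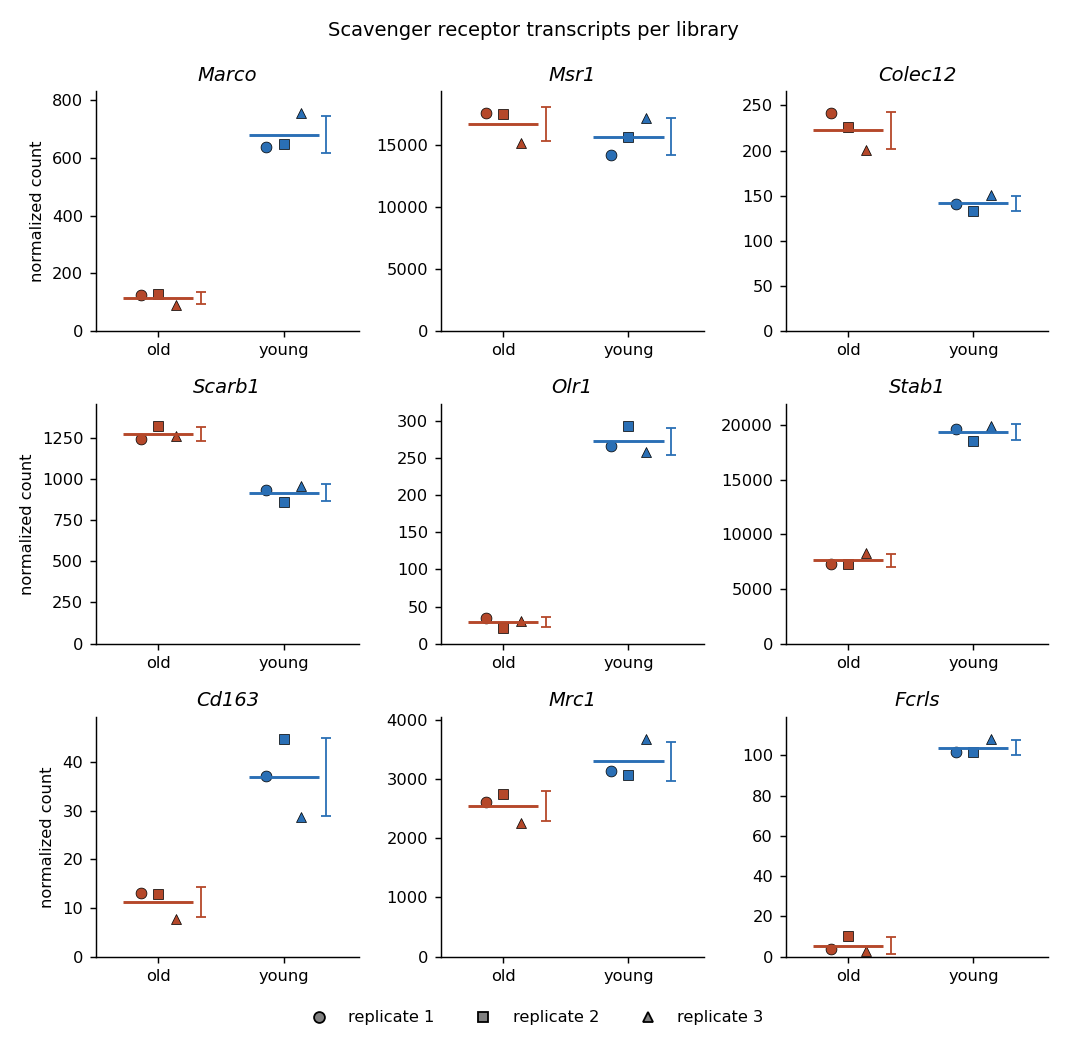
Normalized counts (y axis, starting at 0) of the 9 receptors in old and young libraries, 1 point per library, marker shape by replicate, with the mean as a line and the SD (n = 3) as a bar beside it. Old and young points separate in 8 panels and overlap in the panel of Msr1.

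The upstream sequences of the 5 receptors with the lowest fold changes are shown because these are the transcripts that differed most between the ages. RefSeq promoters of build GRCm38.p6 were found for 6 of the 9 receptors, Mrc1 being the other of them. Each line gives the 250 bases before the annotated start, 5′ to 3′ on the strand of the gene. Capitals mark letters searched on both strands. For the myeloid factor PU.1 the letters were GAGGAA, with the reverse complement read as TTCCTC. For the factor AP-1 they were TGANTCA on either strand. For a half-site of MAF factors they were TGCTGA, with the reverse complement read as TCAGCA. For the TATA box they were TATAAA, with the reverse complement read as TTTATA. No 2 of the marked matches overlap.
Marco (chr1:120505025-120505274, minus strand): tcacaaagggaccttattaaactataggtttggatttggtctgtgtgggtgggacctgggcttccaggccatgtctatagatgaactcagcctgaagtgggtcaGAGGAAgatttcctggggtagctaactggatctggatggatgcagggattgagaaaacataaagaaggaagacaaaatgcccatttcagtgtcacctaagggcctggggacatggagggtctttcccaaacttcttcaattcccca
Olr1 (chr6:129507166-129507415, minus strand): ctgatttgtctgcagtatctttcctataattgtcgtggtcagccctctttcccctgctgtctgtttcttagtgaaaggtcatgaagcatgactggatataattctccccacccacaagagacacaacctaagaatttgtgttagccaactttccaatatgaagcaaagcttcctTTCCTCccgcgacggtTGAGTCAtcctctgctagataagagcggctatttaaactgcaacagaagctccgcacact
Stab1 (chr14:31168642-31168891, minus strand): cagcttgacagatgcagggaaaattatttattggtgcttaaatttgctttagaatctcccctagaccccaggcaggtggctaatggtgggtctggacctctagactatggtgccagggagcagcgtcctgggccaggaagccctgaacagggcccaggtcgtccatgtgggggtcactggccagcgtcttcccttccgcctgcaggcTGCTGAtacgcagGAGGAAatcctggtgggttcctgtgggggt
Cd163 (chr6:124304401-124304650, plus strand): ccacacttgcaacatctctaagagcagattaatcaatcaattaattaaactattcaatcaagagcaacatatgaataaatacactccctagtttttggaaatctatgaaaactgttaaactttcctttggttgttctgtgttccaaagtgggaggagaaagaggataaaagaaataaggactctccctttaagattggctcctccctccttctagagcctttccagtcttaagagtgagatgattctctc
Fcrls (chr3:87263525-87263774, minus strand): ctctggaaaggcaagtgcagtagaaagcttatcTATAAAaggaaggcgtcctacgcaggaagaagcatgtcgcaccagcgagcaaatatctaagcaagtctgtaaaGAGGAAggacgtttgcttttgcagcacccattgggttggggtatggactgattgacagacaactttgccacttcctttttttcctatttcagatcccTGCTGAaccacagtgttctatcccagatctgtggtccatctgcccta

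The PU.1 letters occur in 23.3% of 32851 mouse promoter windows of the same length, the AP-1 letters in 6.75%, the MAF half-site in 16.1% and the TATA letters in 12.4%. In the Marco window GAGGAA lies 146 to 141 bases before the start and none of the other letters is present. In the Stab1 window TGCTGA lies 43 to 38 bases and GAGGAA 30 to 25 bases before the start, close beside each other. The Fcrls window also holds both, GAGGAA 144 to 139 bases and TGCTGA 47 to 42 bases before the start, and TATAAA farther out at 217 to 212 bases. The RefSeq start of Fcrls used here lies within the gene as GENCODE annotates it, and 214 of the 250 bases of its window fall inside that gene. GAGGAA and TGCTGA of Fcrls are thus downstream of the GENCODE start, and TATAAA spans it. The Olr1 window holds TTCCTC 76 to 71 bases and TGAGTCA 60 to 54 bases before the start and is the only one of the 5 with the AP-1 letters. The Cd163 window holds none of the 4. The Mrc1 window, not printed, has TTCCTC 3 times. These are matches of letters and carry no information on binding in these cells.

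Among the class A receptors, which bind polyanions through a collagen-like stalk or a cysteine-rich head, Marco was lower in old, Colec12 was higher and Msr1 did not pass. Marco, which binds unopsonized bacteria and particles (ENSMUSG00000026390, GRCm38 chromosome 1, 120474538 to 120505024, minus strand), had 125.5, 126.5 and 90.2 normalized counts in old replicates 1, 2 and 3, against 639, 647.5 and 755 in young replicates 1, 2 and 3. Every old library lay far below every young one, and the difference between the ages exceeded the spread within either. Marco averaged 114 ± 20.7 (SD, n = 3) in old libraries, against 681 ± 65.0 (SD, n = 3) in young ones. The log2 fold change was -2.58 ± 0.14 (SE), and young libraries held 5.97-fold more. Old replicate 3 was the lowest old library and young replicate 3 the highest young one, and with both left out the log2 fold change was -2.34.

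Msr1, the macrophage scavenger receptor that takes up acetylated lipoprotein (ENSMUSG00000025044, chromosome 8, 39581685 to 39642673, minus strand), was abundant at both ages. It had 17573, 17482 and 15152 normalized counts in old libraries and 14233, 15617 and 17193 in young libraries. The ages overlapped, with old replicate 3 inside the young range. The log2 fold change was 0.09 ± 0.10 (SE, 95% interval -0.14 to 0.33), which does not show that the ages were alike. Without the libraries numbered 3 it was 0.23 ± 0.06 and passed (limma adjusted p = 0.00179, over alternatives 8.49e-05 to 0.88). With libraries centred on macrophage markers it was -0.43 and passed as lower, while the median of all genes moved to -0.53.

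Colec12, a collectin-type receptor of class A with a lectin domain (ENSMUSG00000036103, chromosome 18, 9707595 to 9882644, plus strand), was higher in old. It had 241, 226 and 201 normalized counts in old libraries, against 141, 133 and 150 in young libraries. No old library fell into the young range, and the log2 fold change was 0.65 ± 0.11 (SE), a ratio of means of 1.57. Colec12 is also known from endothelial and stromal cells. Summed endothelial markers were 458.5 to 496 in old and 344 to 401 in young libraries, mostly from Kdr and Vwf, with Tie1 at 0 to 2.56. Vwf passed as higher in old, at 162 against 74.9, as did Pecam1, which met the minimum mean through the old libraries alone. Kdr overlapped and did not pass. Cdh5 did not pass either and had the lower mean in old, at 14.9 against 27.3. Summed mesothelial and fibroblast markers were 471 to 574 in old and 424 to 515 in young libraries, with Msln and Upk3b at 0 to 4.39. Within that sum members differed in direction. Col3a1 was 1.82-fold and Pdgfra 2.33-fold higher in old, Col1a1 was lower at 159 against 253, and Dcn did not pass. The part of endothelial and stromal cells in the Colec12 value was not tested.

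Scarb1, the class B receptor for high-density lipoprotein that moves cholesterol esters across the membrane (ENSMUSG00000037936, chromosome 5, 125277087 to 125341094, minus strand), was also higher in old. Its normalized counts were 1240, 1321 and 1260 in old libraries, against 933.5, 860 and 957 in young libraries. The ages did not overlap and the libraries of each age lay close together. The log2 fold change was 0.48 ± 0.07 (SE), a ratio of means of 1.39. With marker centring the median of all genes moved to -0.53, Scarb1 was at -0.05, Colec12 at 0.12 and neither passed. Such centring moves all genes of a library alike, so distances between genes within a library are the same as with the deposited scaling.

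Olr1 encodes LOX-1, the class E receptor for oxidized low-density lipoprotein (ENSMUSG00000030162, chromosome 6, 129485244 to 129507165, minus strand). It had 34.7, 21.4 and 30.5 normalized counts in old libraries, from 24 to 29 reads each, against 267, 293 and 259 in young libraries. Each young library held several times the count of any old one. Olr1 averaged 28.8 ± 6.79 (SD, n = 3) in old libraries, against 273 ± 18.1 (SD, n = 3) in young ones. The log2 fold change was -3.22 ± 0.18 (SE), 9.46-fold more in young. Olr1 and Scarb1, both receptors of lipoprotein, thus had fold changes of opposite sign.

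Stab1 encodes stabilin-1, a large class H receptor that internalizes modified lipoprotein, the matrix protein SPARC and dying cells (ENSMUSG00000042286, chromosome 14, 31139013 to 31168641, minus strand). It had 7299, 7256 and 8330 normalized counts in old libraries, against 19620, 18541 and 19914 in young libraries. Old replicate 3 was the highest of the old libraries here, unlike for most receptors, and was still far below the lowest young one. Its log2 fold change of -1.35 ± 0.09 (SE) exceeded the spread within either age, and it was -1.39 without the libraries numbered 3. Exons of Stab1 and of Nt5dc2 on the opposite strand overlap, and whether counting used strand is not given in the sources used here. Nt5dc2 had 744.5, 768 and 606 normalized counts in old libraries, against 885, 916 and 1059 in young libraries, far below Stab1 in each of them.

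Cd163, the receptor for haemoglobin-haptoglobin complexes (ENSMUSG00000008845, chromosome 6, 124304656 to 124330527, plus strand), was scarce. It had 13.1, 12.8 and 7.62 normalized counts in old libraries, from 11, 15 and 6 reads, against 37.2, 44.7 and 28.7 in young libraries, from 37, 51 and 34 reads. The ages did not overlap, though the SD was a large share of the mean, 27.7% in old and 21.7% in young libraries. For Cd163 the log2 fold change was -1.65 ± 0.32 (SE), 3.30-fold more in young, and it ranged from -2.18 to -1.37 over the alternatives. Heme oxygenase Hmox1, which breaks down the heme that Cd163 delivers, was 11129 ± 664 in old and 16750 ± 1603 in young ones (SD, n = 3 per age; limma adjusted p = 0.00125).

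Mrc1, the mannose receptor CD206 (ENSMUSG00000026712, chromosome 2, 14229392 to 14332057, plus strand), differed least of the receptors that passed. It had 2622, 2747 and 2262 normalized counts in old libraries, against 3139, 3079 and 3681 in young libraries. The ages did not overlap, but the gap between old replicate 2 and young replicate 2 was smaller than the range within either age. The log2 fold change was -0.38 ± 0.10 (SE), it was -0.21 without the libraries numbered 3, and it did not pass when the variance trend was left out (limma adjusted p = 0.0516, over alternatives 1.18e-05 to 0.0808).

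Fcrls, a secreted or surface relative of the Fc receptors that carries a scavenger receptor cysteine-rich domain and is used in mouse as a marker of microglia (ENSMUSG00000015852, chromosome 3, 87250758 to 87263738, minus strand), had the lowest fold change of the 9. It had 3.58, 10.3 and 2.54 normalized counts in old libraries, from 3, 12 and 2 reads, against 102, 102 and 108 in young libraries, from 101, 116 and 128 reads. Old libraries were near the limit of detection, and old replicate 2 held more than the other two together, while the young libraries lay close together. For Fcrls the log2 fold change was -4.21 ± 0.40 (SE) and ranged from -4.74 to -3.45 over the alternatives, -3.45 being the value with a pseudocount of 5.

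Levels of different genes were compared per length, as normalized counts per kilobase of merged exons. In old libraries the order was Msr1 (2638 ± 216), Stab1 (741.5 ± 59.1), Mrc1 (399 ± 39.5), Scarb1 (150 ± 4.98), Marco (59.3 ± 10.8), Colec12 (25.5 ± 2.35), Olr1 (8.07 ± 1.90), Fcrls (2.34 ± 1.79) and Cd163 (2.05 ± 0.568). In young libraries it was Msr1 (2472 ± 233.5), Stab1 (1882 ± 70.3), Mrc1 (518 ± 52.0), Marco (353.5 ± 33.8), Scarb1 (108 ± 5.94), Olr1 (76.4 ± 5.05), Fcrls (44.5 ± 1.6), Colec12 (16.2 ± 0.979) and Cd163 (6.76 ± 1.47), all SD with n = 3. The ranges of neighbours in these orders did not overlap, except those of Fcrls and Cd163 in old libraries. Marco ranked below Scarb1 in old and above it in young libraries, and Olr1 and Fcrls ranked below Colec12 in old and above it in young libraries.

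Of the summed receptor level per length, Msr1 made up 65.5% ± 2.0 in old and 45.1% ± 1.9 in young ones (SD, n = 3 per age), while Stab1 made up 18.5% ± 2.5 and 34.4% ± 1.8. Marco was 1.46% ± 0.20 in old and 6.45% ± 0.21 in young libraries. The share of Mrc1 was 9.90% ± 0.50 in old and 9.44% ± 0.39 in young libraries. Within a single library Stab1 stood at 0.256, 0.256 and 0.339 of the Msr1 level per length in old libraries, against 0.850, 0.732 and 0.714 in young libraries. Olr1 stood at 0.351, 0.231 and 0.371 of the Colec12 level in old libraries and at 4.62, 5.37 and 4.2 times that level in young libraries. These ratios come from the same libraries as the fold changes and restate them without the scaling between libraries.

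**Figure D2:**
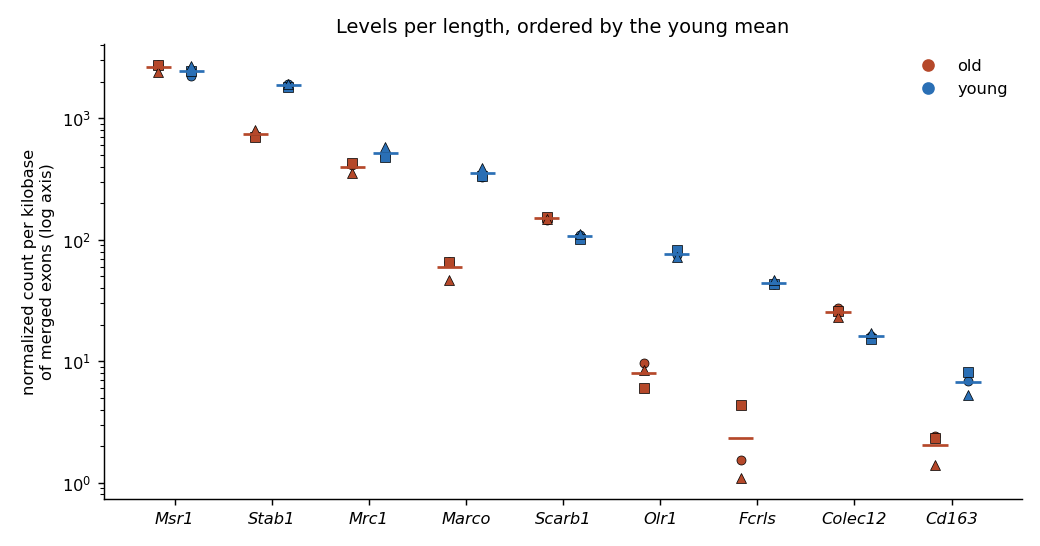
Normalized counts per kilobase of merged exons (log axis) of the 9 receptors in order of their young mean, old points left of young ones for each gene, 1 point per library, lines at the means. Msr1 and Stab1 lead at both ages, and Marco, Olr1 and Fcrls lie lower relative to the other receptors in old libraries.

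The libraries numbered 3, which stood apart on the second principal component, were often the extremes of their age among the receptors. How often this holds over all genes was not counted, so it cannot be called particular to the receptors. Old replicate 3 was the lowest old library for 6 of the 9 receptors and the highest for 1, Stab1. Young replicate 3 was the highest young library for 7 of the 9 and the lowest for Cd163 and Olr1. Without both libraries the count that passed was 9 of 9, with Msr1 added on the higher side. Calls rose over the whole table, with 6964 of 11795 genes passing there, against 4183 with all libraries.

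Among other genes of the scavenger and mannose receptor families, each one that passed was higher in old with the deposited scaling. Of 22 listed genes 9 were tested, 5 were higher in old, 0 were lower, and the median log2 fold change was 0.55 beside 0.00 for all genes, of which 35.5% passed and 17.9% were higher. Ly75, the endocytic receptor DEC-205 of the mannose receptor family, had 491, 496 and 524.5 normalized counts in old libraries, against 117, 142 and 149 in young libraries (log2 fold change 1.89 ± 0.11, SE; limma adjusted p = 1.43e-06). Every old library was well above every young one. B cells and dendritic cells also carry Ly75. Summed dendritic cell markers were 26.7 to 40.2 in old and 12.7 to 15.8 in young libraries, and none met the minimum mean. Most of the difference came from Dpp4, at 7.17 to 18.8 in old and 1.01 to 3.38 in young libraries. Zbtb46 overlapped, at 5.08 to 9.40 in old and 3.38 to 10.5 in young libraries. The part of B cells and dendritic cells in the Ly75 value was not tested.

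Cd36, the class B receptor for oxidized lipoprotein and long-chain fatty acids, was 33980 ± 4170 in old and 15568 ± 1945 in young ones (SD, n = 3 per age; limma adjusted p = 0.000129), 2.18-fold higher in old. Cd68, a lysosomal class D receptor and pan-macrophage marker, was 1.69-fold higher (limma adjusted p = 0.00071). Cd5l, a secreted protein of macrophages with scavenger receptor cysteine-rich domains, was 1.64-fold higher (adjusted p = 0.00479), and Scarf1, a class F receptor for dying cells, 1.47-fold higher (adjusted p = 0.00231). Scarb1's relative Scarb2, the membrane-bound chemokine Cxcl16, Cd44 and the large receptor Lrp1 did not pass, with log2 fold changes of 0.18, -0.20, 0.18 and -0.30. Without old replicate 3, Scarb2, Cd44 and Lrp1 passed, which made 7 higher and 1 lower, beside 5685 of all 11795 genes passing. With marker centring 3 of the 9 were higher, Ly75, Cd36 and Cd68, and 4 were lower, while Scarf1 and Cd5l did not pass. Under that centring 567 of all 11795 genes tested were higher and 7690 lower. The relatives closest in structure to lower receptors were scarce: Stab2 had 1.2 to 1.71 normalized counts in old libraries and was listed at 0 in young, and Cd163l1 had 5.08 to 7.17 in old and 0 to 1.01 in young libraries.

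**Figure D3:**
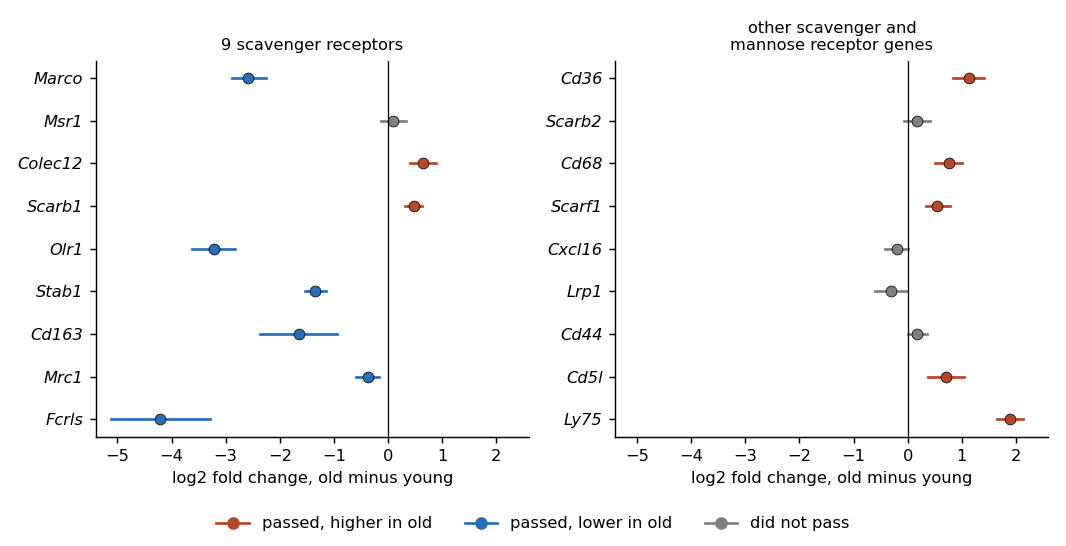
Log2 fold change, old minus young, of the 9 receptors (left) and of the 9 tested genes among other scavenger and mannose receptors (right), points with 95% intervals from limma, coloured by whether the gene passed over all genes tested. Of the receptors 6 lie below 0 and passed, and on the right all 5 that passed lie above 0.

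Fcrls was set beside its Fc receptor-like and Fc gamma receptor relatives. Of 10 listed genes 8 were tested, 5 were higher in old and 1 was lower, with a median of 0.55, beside 17.9% higher and 17.6% lower of all genes tested. Fcgr2b, the inhibitory receptor for immunoglobulin G, was the lower one, with 2061, 2034 and 2084 normalized counts in old libraries, against 4494, 4554 and 4719 in young libraries (log2 fold change -1.16 ± 0.06, SE; limma adjusted p = 9.21e-07). Its libraries were tight at both ages and did not overlap. The activating receptor gene Fcgr3 was 1.55-fold higher in old (adjusted p = 0.00358), as were Fcgr4 (1.79-fold, adjusted p = 0.0123) and Fcgr1 (1.37-fold, adjusted p = 0.0205). Fcgr1 lost its call without old replicate 1, old replicate 2, young replicate 1 or young replicate 2, and Fcgr4 without old replicate 1 or young replicate 2, with adjusted p up to 0.491 for Fcgr1 and 0.13 for Fcgr4 over the alternatives. With marker centring Fcgr1 was at -0.06, and Fcgr1, Fcgr3 and Fcgr4 did not pass.

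Fcrl1 and Fcrla are B cell genes. Fcrl1 passed as higher in old, while Fcrla met the minimum mean through the old libraries alone, so that its call, 1 of the 5 above, follows in part from the filter. Fcrl1 had 162.5, 136 and 114 normalized counts in old libraries, against 15.1, 15.8 and 14.4 in young libraries, and Fcrla had 71.7, 76.9 and 30.5, against 0, 4.39 and 1.69. The B cell gene Ms4a1 (CD20) had 145, 170.1 and 74.9 in old libraries, against 2.01, 0.877 and 3.38 in young libraries. Old replicate 3 was lowest of the old libraries in all 3 genes, as it was for 6 of the 9 receptors. Fcrls thus had the opposite sign to Fcrl1 and Fcrla. Fcrlb, picked after its value was seen, had the sign of Fcrls at -0.55 but did not pass, and Fcgr2b had that sign too.

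Transcription factors known to act on macrophage receptor genes moved in both directions. Of 20 tested, 10 were higher and 4 lower in old, with a median of 0.22, beside 17.9% higher and 17.6% lower of all genes tested. Irf8, a factor of monocyte development, was lower in old at 1374 ± 73.1 against 2507 ± 82.1 (limma adjusted p = 1.06e-05), while Irf4 was 6.09-fold higher at 111 ± 29.9 against 18.2 ± 2.62 (SD, n = 3 each; limma adjusted p = 4.66e-05). Irf4 is also a B cell and dendritic cell gene, and the part of those cells in its value was not tested.

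Pparg, the lipid-sensing receptor that acts on Cd36, was 147 ± 5.69 in old and 51.2 ± 5.36 in young ones (SD, n = 3 per age; adjusted p = 2.5e-05), and the sterol sensor Nr1h3 (LXR alpha) was 1.45-fold higher (adjusted p = 0.00219). Cebpb, an inflammatory factor, was lower in old at 555 ± 96.4 against 855 ± 132.5 (adjusted p = 0.00745), as was Klf4, a factor of monocytes picked after its value was seen, at 167 ± 32.9 against 257.5 ± 22.4 (adjusted p = 0.00765). The count of factors that passed was 9 without young replicate 1 and 8 without young replicate 2. The number of lower ones stayed at 4 in both, and 3209 and 2927 of all 11795 genes passed. With marker centring 2 factors, Pparg and Irf4, were higher and 15 were lower, and Nr1h3 was at 0.01. Of all 11795 genes tested, 567 were higher and 7690 lower under that centring.

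Among 20 tested genes for adaptors, sorting, shedding and ligands of the receptors, 4 were higher and 4 lower in old, with a median of 0.07. That is near the share among all genes tested, 17.9% higher and 17.6% lower, so the count says nothing particular of this list. The lower ones were the proprotein convertase Furin, at 1270 ± 39.2 against 2401 ± 177.5 (SD, n = 3 each; limma adjusted p = 1.28e-05), the sheddase Adam10 at 1936 ± 107 against 3424 ± 166 (adjusted p = 2.14e-05), Rhbdf2, which matures the sheddase ADAM17, at 714 ± 35.01 against 1147 ± 43.1 (adjusted p = 6e-05), and Hmox1. Adam17 itself, which sheds CD163 and was chosen after its value was seen, did not pass at 0.08. Chid1, a secreted protein that stabilin-1 sorts, was 1.45-fold higher in old (adjusted p = 0.000947). The stabilin-1 ligand gene Sparc, also chosen afterwards, had 149, 119.7 and 91.5 normalized counts in old libraries, against 89.5, 79.0 and 111 in young libraries, and the ages overlapped. Tnfsf12 (TWEAK), a ligand of CD163, was 1.25-fold higher in old (adjusted p = 0.0155) and lost its call without old replicate 1 or old replicate 2 (adjusted p up to 0.137 over the alternatives). The kinase Syk, picked after its value was seen, was 1.18-fold higher (adjusted p = 0.0265) and lost the call when old replicate 1 was left out, or young replicate 1, or young replicate 2 (adjusted p up to 0.359 over the alternatives). With marker centring none of the 20 was higher and 16 were lower, beside 567 higher and 7690 lower of all 11795 genes tested. Without old replicate 1, 5 of the 20 passed, beside 3057 of all 11795 genes.

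**Figure D4:**
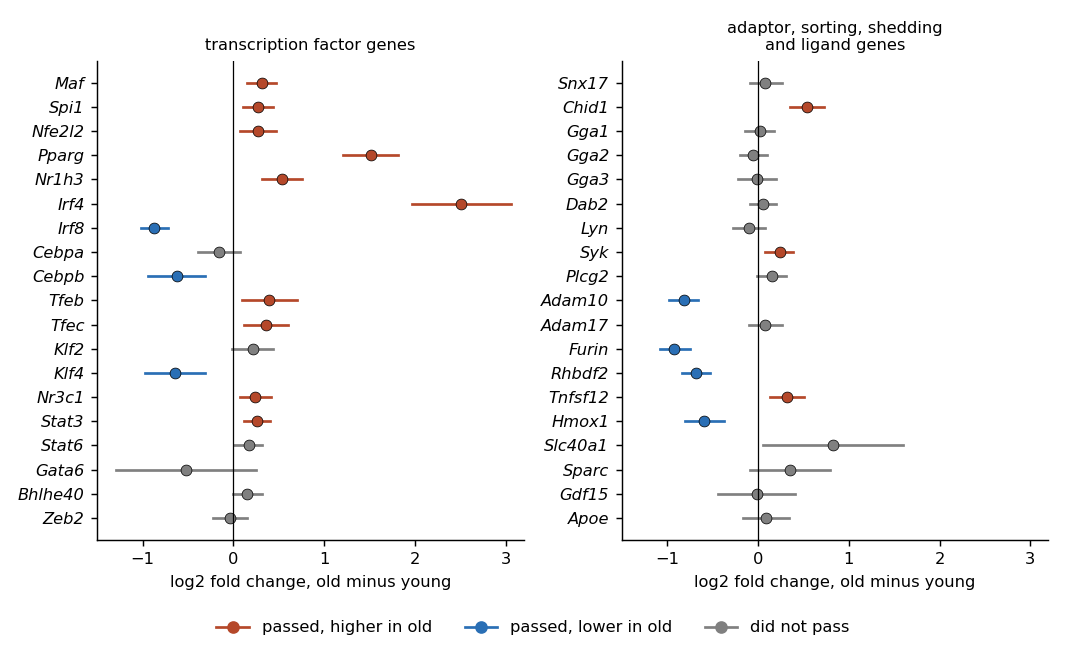
Log2 fold change, old minus young, of transcription factor genes (left) and adaptor, sorting, shedding and ligand genes (right), 1 gene of each list not being drawn, points with 95% intervals from limma, coloured by whether the gene passed over all genes tested. Most intervals lie within 1 of 0, while Irf4 and Pparg lie higher.

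Finally, the genes whose profile over the 6 libraries was most like that of Marco, Stab1 and Cd163 were listed. Likeness was the root mean square difference of log2(normalized count + 1), each gene centred on its own mean, over 9269 genes with a mean of at least 50. This measure is dominated by the difference between the ages, which many genes share. Nearest to Marco were the linker histone gene Hist1h1a (0.072), the spindle assembly gene Tpx2 (0.084) and the cytokinesis gene Cep55 (0.084). Hist1h1a had 133, 143 and 95.3 normalized counts in old libraries, against 610, 688 and 770 in young libraries, values close to those of Marco in each library. Nearest to Stab1 were Arap3, a GTPase-activating protein gene (0.049), Sowahc (0.050) and the kinesin gene Kif24 (0.054). Nearest to Cd163 were the tubulin gene Tube1 (0.150) and the histone genes Hist2h4 (0.190) and Hist1h1c (0.223).

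The other receptors were less like Marco, Stab1 and Cd163 than these genes were. The receptor nearest to Marco was Olr1, at a difference of 0.449 and rank 161, the receptor nearest to Cd163 was Stab1, at 0.394 and rank 191, and the nearest to Stab1 among receptors with a mean of at least 50 was Mrc1, at 0.511 and rank 1412. Cd163, below that minimum, was not ranked, but at 0.394 it was nearer to Stab1 than Mrc1 was.

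**Figure D5:**
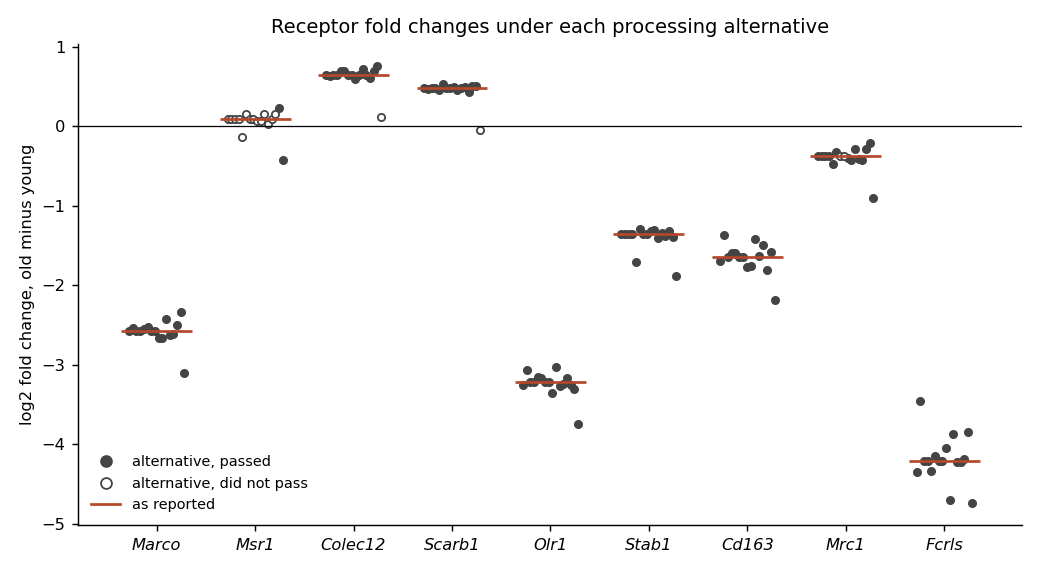
Log2 fold change, old minus young, of each receptor under up to 16 processing alternatives (points, filled where the gene passed and open where it did not) beside the reported value (line). Marco, Olr1, Stab1, Cd163, Mrc1 and Fcrls stay below 0 in each alternative, and Msr1 lies on both sides of 0.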

How the data were processed

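RNA of 3 old and 3 young macrophage libraries (TruSeq, per the labels' protocols) was deposited as 1 table of 19973 Ensembl genes. Its values are signal, counts that the authors divided by a size factor for each library; DESeq2 and mm10 are named, without versions, per the submitters' processing notes. For the aligner, counter, annotation and strand use: not given in the sources used here. Each column consists of whole multiples of 1 step (100% within 0.01 reads), from which reads were implied as a description of depth. Intervals of fold changes are limma's and rest on the spread between libraries.

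Symbols, positions and lengths came from GENCODE release M21 (GRCm38), and 19917 identifiers matched a symbol. A chi-square per gene was taken for every library pair; its ratio to sampling noise was 1.49 to 4.67 within an age and 8.57 to 18.9 between ages. No pair differed by less than sampling noise, so none was merged; this does not show that libraries are separate animals. Genes with a mean of at least 10 (11795) were tested with limma 3.58.1 in R 4.3.3 with a variance trend on log2(normalized count + 1), which understates changes of low genes. P-values are 2-sided and adjusted by Benjamini-Hochberg over all genes tested, with a threshold of 0.05. Adjusted p-values in the text are from limma. The test was tried on simulated data for this comparison, with 3 runs, 200 altered genes per run and 11778 genes tested on average. It recovered 50.7% of genes changed 1.5-fold and 84.7% of those changed 2-fold, with 6.03% false calls. Far more genes passed in the data (4183) than were altered in a run, so these rates need not hold for the data. No set test was run.

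Receptors and lists were chosen with earlier results of these data known. Named genes are the 9 receptors and up to 6 passing members of each other list by smallest adjusted p. To these come the 3 genes most like each of Marco, Stab1 and Cd163. Others are marked, apart from Scarb2, Cxcl16, Cd44, Lrp1, Stab2, Cd163l1, Nt5dc2 and cell type markers, which were also named outside this rule. Alternatives were pseudocounts, filters, scalings, no variance trend, the replicate number as a block and libraries left out. A transcription factor gene and an adaptor gene are counted in their lists but not reported by name here.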

Additional observations from a re-analysis of the deposited data

How the results depend on the processing

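The direction and the call of Marco, Olr1, Stab1, Cd163 and Fcrls were kept in every alternative that could test them (16, or 15 for Cd163, which a minimum mean of 50 removed), and leaving out any 1 library left 8 receptors past the threshold each time. Mrc1 lost its call without the variance trend (-0.38, limma adjusted p = 0.0516) and with the replicate block (0.0808). Msr1 turned to -0.13 under quantile normalization and to -0.43 when libraries were centred on macrophage markers, where Scarb1 turned to -0.05; that scaling, added after seeing the data, gave 8257 genes, 567 higher and 7690 lower in old, against 2107 higher and 2076 lower as reported. Median centring gave 60.3% of calls as higher, against 50.4%. The receptors' median was -0.86 with a mean of at least 50, -1.59 under quantile normalization, -1.88 with marker centring and -1.41 to -1.31 with 1 library left out. Causes were not tested.

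Of all genes 4183 passed, 6964 without both libraries numbered 3 and 2927 to 5685 with 1 library left out. Without both, 8 other scavenger and mannose receptors and 14 adaptor, sorting, shedding and ligand genes passed. With 1 library left out the counts were 5 to 8 for other scavenger and mannose receptors, 8 to 15 for transcription factors, 5 to 10 for adaptors and ligands and 4 to 7 for Fc receptor relatives.

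With the replicate block 2643 genes, 7 receptors, 7 transcription factors and 5 adaptor, sorting, shedding and ligand genes passed. Deviations of same-numbered libraries from the mean of their age correlated at -0.38, -0.36 and -0.68. This cannot decide whether they share more than a number, since deviations from the mean of so few libraries depend on each other. The young order of levels was the same for all 36 pairs with the longest transcript as length; in old libraries Fcrls and Cd163 changed places. The count-based tests edgeR and DESeq2 were not run. Depth limits Fcrls and Cd163 in old libraries, at 2 to 15 reads.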

Other observations

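Markers of other cells and macrophage subsets were looked up beside the receptors. The resident macrophage list had 2 of 6 tested members higher in old and 0 lower, with a summed level of 2224 to 2704 in old and 1062 to 1437 in young libraries, most of it from Serpinb2. The monocyte-derived list had 4 of 6 higher and 0 lower, at 2427 to 3332 in old and 1740 to 2008 in young libraries. Most of that sum came from Folr2, at 1575 to 1863 in old and 1092 to 1291 in young libraries. Selp of the resident list and Ly6c2 and Plac8 of the monocyte-derived list met the minimum mean through the old libraries alone. Lyve1, a marker of perivascular macrophages that often carry Mrc1 and Stab1, was listed at 0 in each of the 3 old libraries. It had 4.02, 8.77 and 4.23 normalized counts in young libraries, from 4, 10 and 5 reads, and was too low to be tested. The members of its list that passed, Folr2, Ly6c2, H2-Ab1 and Plac8, were higher in old. Of 9 macrophage identity markers 6 were higher in old and 0 lower. For all genes tested the shares were 17.9% higher and 17.6% lower. All 7 B cell and 5 tested mast cell markers were higher in old. Among them, the B cell genes other than Ighm and the mast cell gene Mcpt4 met the minimum mean through the old libraries alone. Summed T and NK cell markers were 38.1 to 65.0 in old and 4.23 to 9.05 in young libraries, and summed eosinophil markers 30.5 to 45.3 in old and 8.05 to 17.5 in young libraries. Most of the eosinophil difference came from Il5ra, at 21.6 to 29.1 in old and 0 to 2.63 in young libraries, while Siglecf overlapped, at 3.58 to 6.84 in old and 3.02 to 7.02 in young libraries. The neutrophil sum, 509.3 to 654 in old and 186 to 238 in young libraries, came almost wholly from S100a8, with Camp and Ltf at 0 to 2.01. The part of these cells in the receptor values was not tested.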
